A study of Mus musculus with 15 samples.

Results

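Cardiac fibroblasts of infarcted mouse hearts were compared with those of unstressed hearts across all genes on the arrays. The comparison used the 5 arrays titled as activated cardiac fibroblasts (aCF) and the 5 titled as fibroblasts of unstressed control hearts (CF), which are 10 of the 15 arrays in the series. The aCF came from hearts 5 days after myocardial infarction. The CF hearts had no infarction, and no sham-operated group is named in the labels, so effects of the operation and of infarction cannot be told apart. The other 5 arrays, EpiSC, hold epicardial stromal cells from the surface of hearts 5 days after infarction and serve here only as values beside some genes. All groups were wild-type C57BL/6 mice of 8 to 12 weeks, and the titles call the arrays of a group biological replicates.

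Which gene a row belongs to was inferred. As deposited, identifiers and values were out of register, and the values of an identifier were taken from the row 6900 places further down (6903 for chromosomes 10 and 11). No header or label states this displacement. It left 15303 of 22206 rows with an identifier and 13513 named genes with a value. Counts over all probe sets do not depend on it, but every gene name does. Genes of chromosomes 12 to 19 and of the later part of chromosome 11, among them the smooth muscle actin gene Acta2, were not analysed here.

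Fibroblasts make and maintain the collagen network of the heart. After an infarction they are known to proliferate, to take on contractile proteins, and to secrete fibrillar collagen and matricellular proteins (matrix proteins that signal to cells rather than bear load) that form the scar. Proteins that mark the resting state are known to be lost on the way.

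Hearts of both groups were perfused with collagenase, the atria were removed, and strainers and a slow spin took heart muscle cells away. Only the infarcted hearts were also shaken to strip cells from the surface, so isolation differed together with infarction and the effects of each cannot be told apart. Whether a sort followed is not stated in the labels used here. Each value is a log2 signal minus the median of its probe set over the 15 arrays, so that 0 is that median. The base of the logarithm was inferred from the method and the range of the values. Absolute levels, and whether a probe set was above background, cannot be read from them, and neither can the presence of fibroblast marker RNA in a sample be checked by its level. A difference of 1 is a 2-fold difference. In such bulk samples, fewer cells of a type and less RNA per cell cannot be told apart.

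Rose and fell are used here for probe sets with a Bonferroni-adjusted p under 0.05 in limma's moderated test over all 22206 probe sets. An adjusted p is this one unless it is named otherwise, and errors of differences are SE. Higher and lower are used for those that passed the Benjamini-Hochberg adjustment at 0.05. By the Bonferroni rule 340 probe sets (1.53%) passed, of which 269 (1.21%) rose and 71 (0.32%) fell in aCF. Of these, 303 carried a gene name, 238 that rose and 65 that fell. By the Benjamini-Hochberg rule 4023 probe sets (18.1%) passed, with 1940 (8.74%) higher and 2083 (9.38%) lower. Among the Bonferroni calls, 64 increases and 5 decreases were at least 4-fold. In each of the 340, all aCF arrays lay on one side of all CF arrays, which was so for 3269 (14.7%) of all probe sets (7.88% with aCF above and 6.84% with aCF below). The median difference over all probe sets was -0.02.

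The median SD over the 5 arrays of a group was 0.132 in CF and 0.159 in aCF. The count of Bonferroni calls was lower whichever 1 array was left out. It was 203 without CF2, 197 without CF3, 220 without CF5, 213 without aCF2 and 215 without aCF5, and it was 144 without both aCF4 and aCF5. No other pair of arrays was left out. For a call lost without that pair, an effect of these arrays and the smaller number of arrays cannot be told apart. The Benjamini-Hochberg count ranged from 3157 to 4224 when 1 array was left out. For this reason, counts of most gene lists are given by both rules.

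The 5 genes that head this comparison are 3 of the matrix, 1 of division and 1 of metabolism. Cemip, which takes part in the breakdown of the matrix sugar hyaluronan, stood at -3.14, -3.12, -3.47, -3.20 and -3.19 in CF1 to CF5. In aCF1 to aCF5 it stood at 1.90, 2.31, 1.90, 2.54 and 2.41. The groups were far apart, and the increase of 5.44 ± 0.13 (SE, n = 5 arrays per group), or 43.3-fold, was the largest on the arrays (adjusted p = 1.72e-08). It was 4.85 after a further quantile normalization. That step was applied to the centred values and gives each array the same distribution of them. Large differences can therefore shrink through the step itself. Tnc, the matricellular glycoprotein tenascin C, stood at -2.58, -2.71, -2.93, -2.49 and -3.02 in CF. Its aCF values were 0.26, 0.22, 0.25, 0.28 and 0.27. The aCF arrays agreed within 0.02 (SD), and the rise was 3.00 ± 0.10 (adjusted p = 2.96e-07).

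Postn, the matricellular protein periostin and a widely used marker of activated fibroblasts, stood between -0.85 and -0.66 in CF and between 0.25 and 0.52 in aCF. Its rise of 1.17 ± 0.07 (adjusted p = 9.41e-05) was smaller than those of Cemip and Tnc. Cdk1, the kinase that drives entry into mitosis, stood at -3.94, -4.23, -4.20, -2.65 and -4.07 in CF and at -0.07, -0.02, 0.00, 0.26 and 0.10 in aCF. The array CF4 was nearest to the aCF arrays, and no CF array reached them (3.87 ± 0.27, adjusted p = 0.000636). After quantile normalization the difference of Cdk1 was 3.08. Ces1d, a carboxylesterase that hydrolyses lipid esters, fell from 1.90, 2.11, 2.05, 1.99 and 2.31 in CF to 0.00, -0.60, 0.01, -1.22 and -0.32 in aCF. All CF arrays were close together, while aCF4 was the lowest of a wider aCF group (-2.50 ± 0.21, adjusted p = 0.00507). In a fit of all 15 arrays the call of Ces1d was lost (adjusted p = 0.347). Such a fit leaves the difference between aCF and CF unchanged but takes its error from the spread of EpiSC too. For Ces1d the SD was 1.04 in EpiSC, 0.15 in CF and 0.51 in aCF.

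**Figure D1:**
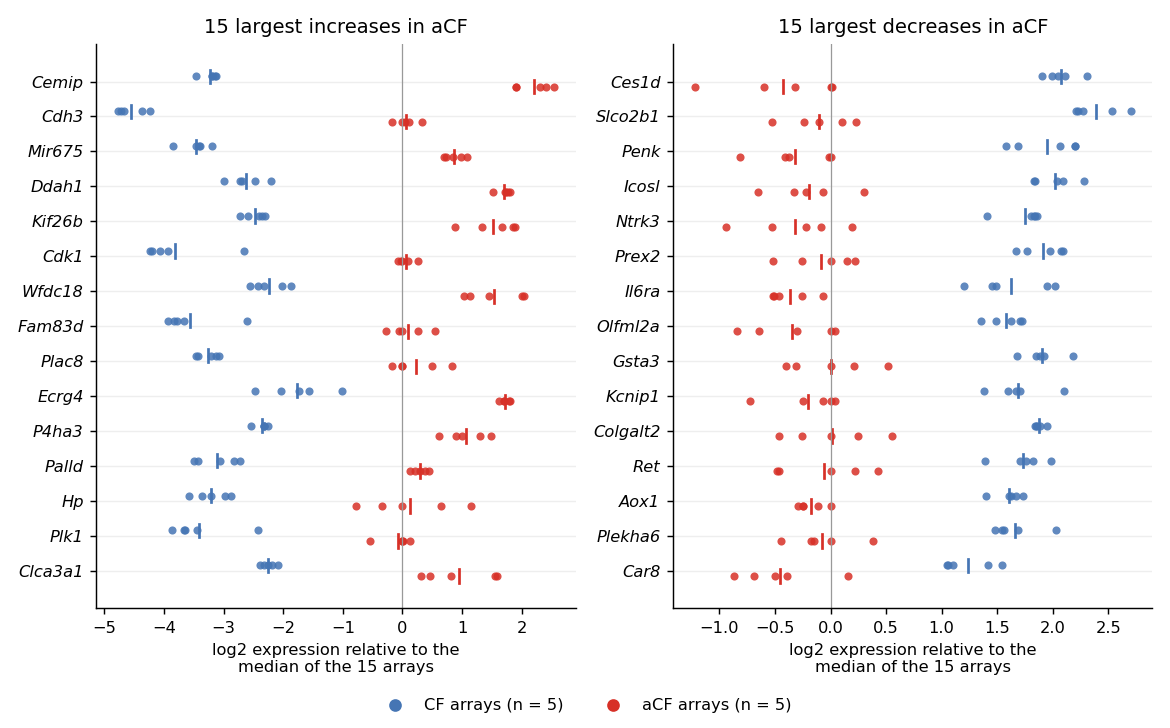
Values of the 15 genes with the largest increases (left) and the 15 with the largest decreases (right) among named probe sets that passed the Bonferroni rule. Each point is 1 array, blue for CF and red for aCF, the short vertical line is the mean of the 5 arrays, and the horizontal axis is the log2 value, with 0 at the median of all arrays. No CF point overlaps the aCF points of its gene, and Cdk1 and Plk1 in CF4 and Fam83d in CF5 stand apart from the other CF arrays.

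The other large increases named genes of varied function. Cdh3, the cell adhesion molecule P-cadherin, stood at -4.37, -4.72, -4.24, -4.67 and -4.77 in CF and at 0.04, 0.00, -0.17, 0.11 and 0.33 in aCF. It rose by 4.62 ± 0.12 (24.5-fold, adjusted p = 3.69e-08), or 3.58 after quantile normalization. Ddah1, which degrades an inhibitor of nitric oxide synthase, stood between -2.99 and -2.21 in CF and between 1.52 and 1.80 in aCF (4.33 ± 0.13). Kif26b, a kinesin-family protein, rose by 4.00 ± 0.18, and Wfdc18, a small secreted protein with a whey acidic protein fold, by 3.77 ± 0.22. P4ha3, a subunit of collagen prolyl 4-hydroxylase, stood between -2.54 and -2.26 in CF and between 0.62 and 1.48 in aCF (3.41 ± 0.14, adjusted p = 4.44e-06). Palld, which organizes actin bundles, rose by 3.40 ± 0.15 (2.80 after quantile normalization). Plac8 and Ecrg4, both with a difference of 3.49, rose with SE of 0.18 and 0.22, and Clca3a1 rose by 3.20 ± 0.24. The probe set annotated as Mir675 rose by 4.33 ± 0.12. Its annotation also lists a second transcript, so which RNA it measured cannot be told.

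The increase of Hp, the haemoglobin-binding plasma protein haptoglobin, was the least certain of the 15 largest. In aCF it ranged from -0.78 in aCF1 to 1.15 in aCF4, and in CF from -3.58 to -2.87 (3.34 ± 0.32, adjusted p = 0.0183). The call held without aCF1, aCF2 or aCF4 and was lost without any other single array (adjusted p up to 0.115) and after quantile normalization (2.66, adjusted p = 0.769).

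The decreases were smaller than the increases. Slco2b1, an organic anion transporter, stood at 2.23, 2.53, 2.70, 2.27 and 2.21 in CF and at -0.10, -0.24, 0.23, -0.53 and 0.10 in aCF (-2.50 ± 0.15, adjusted p = 0.000154). Penk, the precursor of the enkephalin peptides, stood between 1.58 and 2.20 in CF and between -0.81 and 0.00 in aCF (-2.27 ± 0.18). Both calls were lost in the fit of all 15 arrays (adjusted p = 0.0598 for Slco2b1 and 0.176 for Penk). Icosl, a ligand that costimulates T cells, fell by 2.21 ± 0.16 on the log2 scale, and the Rac exchange factor Prex2 fell by 2.00 ± 0.15. Aox1, an aldehyde oxidase, had the smallest SE of the 15 largest decreases. It stood between 1.40 and 1.73 in CF and between -0.29 and 0.00 in aCF (-1.79 ± 0.08, adjusted p = 7.76e-06).

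Il6ra, the receptor chain that binds interleukin 6, fell by 1.99 ± 0.16. Without aCF4 and aCF5 its difference was -1.90 (adjusted p = 0.169). Olfml2a, a secreted matrix protein, fell by 1.92 ± 0.17. Colgalt2, a collagen galactosyltransferase, stood between 1.84 and 1.95 in CF and between -0.46 and 0.55 in aCF (-1.86 ± 0.16). Its call was lost in the fit of all 15 arrays (adjusted p = 0.219) and with a trended, robust prior (0.124). The same prior ended the calls of the potassium channel partner Kcnip1 (-1.89 ± 0.16, adjusted p = 0.0611) and of Plekha6 (-1.74 ± 0.15, adjusted p = 0.112, and 0.114 without aCF4 and aCF5). The glutathione transferase Gsta3 (-1.90 ± 0.17) lost its call without CF3 or CF4 (adjusted p up to 0.0523), with that prior (0.121), and without aCF4 and aCF5 (0.237).

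Calls of 3 more of the largest decreases were lost in most omissions of 1 array. Ntrk3, the receptor of neurotrophin 3, had a difference of -2.07 ± 0.19 (adjusted p = 0.0106). It kept its call without CF1, aCF1, aCF3 or aCF5 and lost it in the other omissions of 1 array (up to 0.0738). The trended, robust prior also ended it (0.0521). The receptor tyrosine kinase gene Ret had a difference of -1.79 ± 0.18 (adjusted p = 0.0327) and Car8 of -1.69 ± 0.18 (adjusted p = 0.0485). Both kept their calls without aCF1 alone and lost them without each of the other 9 arrays (up to 0.195 and 0.268). They also lost them after quantile normalization (adjusted p = 0.0853 and 0.0534), with that prior (0.246 and 0.114) and without both aCF4 and aCF5 (0.0727 and 0.498).

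Genes were then grouped into 34 lists by function or cell type, with 1035 of 1483 listed genes measured. The lists were chosen with earlier results of these data known, and their counts are descriptions. Over all probe sets 1.21% rose, 0.32% fell, 8.74% were higher and 9.38% were lower. Counts of a list are to be read beside these shares.

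**Figure D2:**
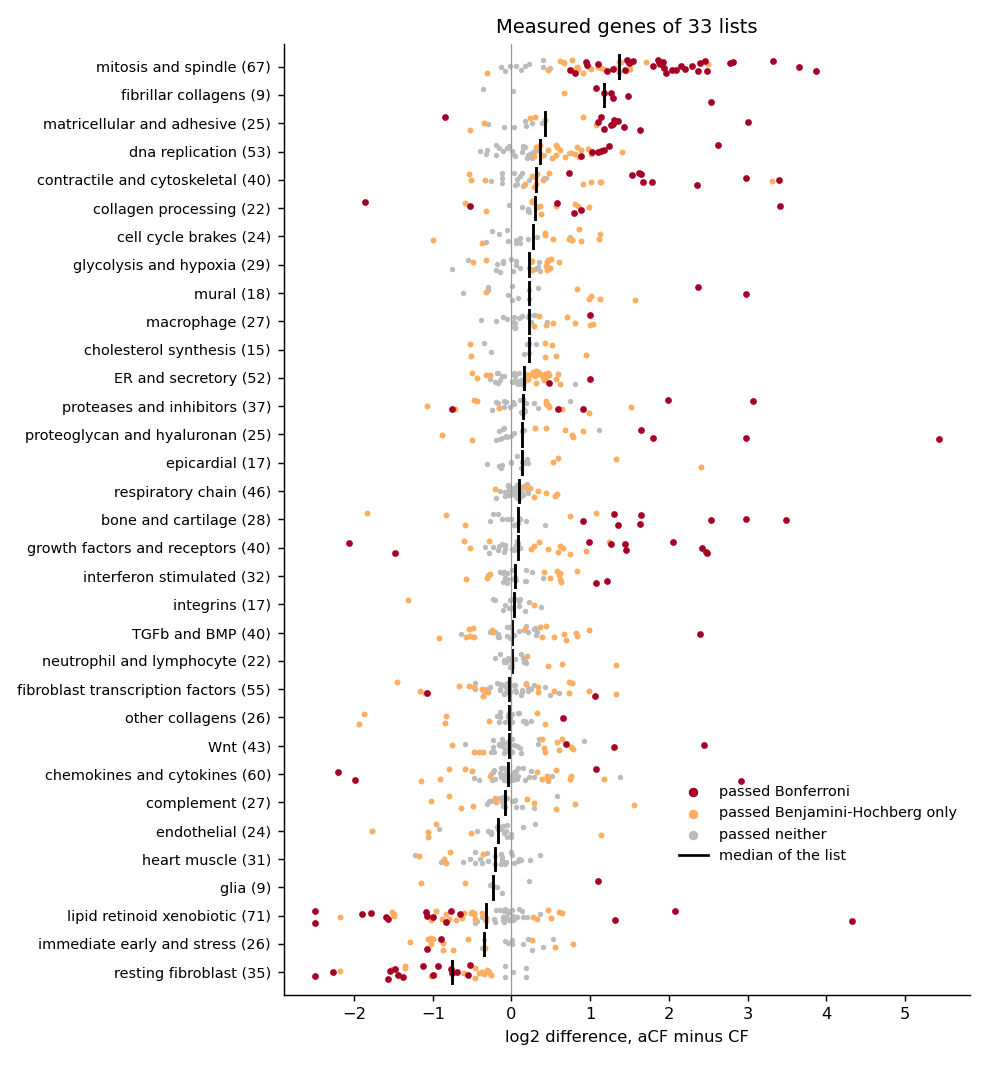
Log2 difference (aCF minus CF, horizontal axis) of every measured gene in 33 of the lists, ordered by their median (black line), with the number of measured genes in brackets. Dark red points passed the Bonferroni rule, orange points only the Benjamini-Hochberg rule, and grey points neither. Mitosis and spindle genes had the highest median, 1.36, and resting fibroblast genes the lowest, -0.75.

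RNA of other cell types was examined first, because it touches several lists. Mean values of the 18 measured mural cell genes (pericytes and vascular smooth muscle) lay between 0.32 and 0.54 in aCF and between -0.47 and 0.11 in CF. By the Benjamini-Hochberg rule 7 were higher and 1 lower (2 without CF4), and 2 rose. Those were Cnn1, described with the contractile genes, and Rgs4, a regulator of G protein signalling (2.38 ± 0.25, adjusted p = 0.042). Rgs4 kept its call without CF2 or CF4 and lost it without each of the other 8 arrays (up to 0.221), with a trended, robust prior (0.0918) and without aCF4 and aCF5 (1). Rgs5, a pericyte marker, stood between 0.39 and 1.16 in aCF and between -0.91 and 0.27 in CF, lowest in CF4 and CF5 (1.13 ± 0.25). The adhesion molecule Mcam differed by 1.58 ± 0.22 and also did not overlap. The mean of 27 macrophage genes lay between 0.07 and 0.23 in aCF and between -0.17 and -0.06 in CF, with 9 higher. The lysosomal protease Ctss rose by 1.00 ± 0.08 (adjusted p = 0.126 with the trended, robust prior). The macrophage lysozyme Lyz2 was higher by 1.03 ± 0.17, while the leukocyte surface phosphatase Ptprc differed by 0.05 ± 0.10. Of 22 neutrophil and lymphocyte genes, 4 were higher, and S100a8, Cd3e and Cd79a differed by -0.10, 0.15 and -0.05.

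Endothelial and heart muscle RNA split the aCF arrays. The mean of 24 endothelial genes was between 0.03 and 0.16 in aCF1 to aCF3 and -0.24 and -0.17 in aCF4 and aCF5, against 0.09 to 0.41 in CF. By the Benjamini-Hochberg rule 1 was higher (2 without aCF1 or aCF4) and 5 lower. The adherens junction gene Cdh5 stood at 0.66, 0.45, 0.00, -0.90 and -0.63 in aCF and between 0.56 and 1.26 in CF. The mean of 31 heart muscle genes was between 0.05 and 0.25 in aCF1 to aCF3 and -0.38 and -0.31 in aCF4 and aCF5, against 0.16 to 0.35 in CF. Of these genes 5 were lower, among them the troponin Tnnt2 (-0.86 ± 0.24), and that count was 2 without CF3, aCF4 or aCF5, 3 without CF1 or CF5, and 10 without aCF3. Of 17 epicardial genes 4 were higher. The mesothelial protein Dmkn stood between -2.77 and -1.84 in CF, between -1.04 and 1.16 in aCF and at 3.62 ± 0.13 (SD, n = 5) in EpiSC, while the epicardial transcription factor Wt1 differed by 0.17 ± 0.12. In the endothelial, heart muscle, epicardial, and neutrophil and lymphocyte lists, 0 genes passed the Bonferroni rule in limma. At an unadjusted p under 0.05 their counts were 12, 13, 5 and 6. Of all 22206 probe sets, 6917 lay under the same threshold. The shares of the endothelial and heart muscle lists were above that of all probe sets. Those of the epicardial list and of the neutrophil and lymphocyte list were slightly below it. These differences in share were not tested. Of 9 glial genes 1 was higher and 2 lower. The higher gene, Fabp7, also rose (difference 1.10, adjusted p = 0.0493). Its call held without aCF3 and was lost without each other array (up to 0.283). The part of these cells in the results that follow was not tested.

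**Figure D3:**
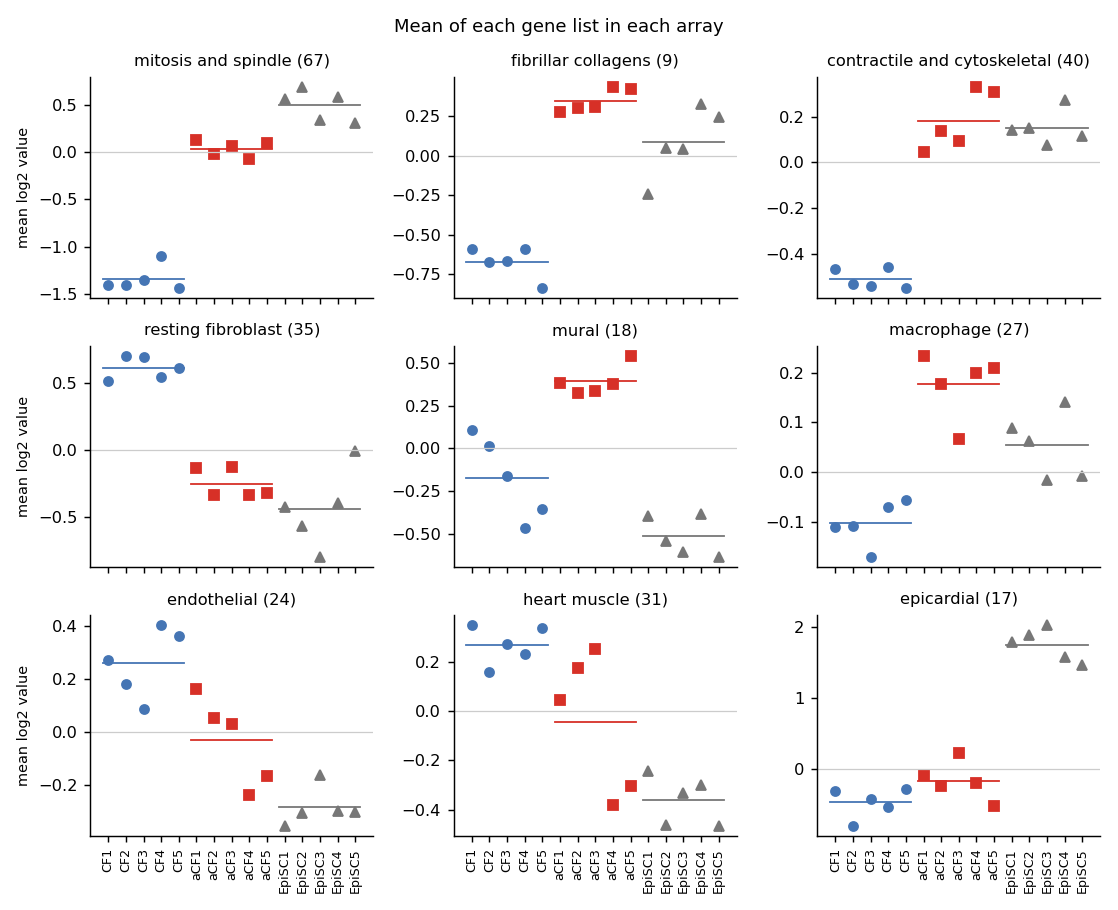
Mean log2 value of 9 gene lists in each array (vertical axis, with the number of measured genes in brackets), with blue circles for CF, red squares for aCF and grey triangles for EpiSC. Horizontal lines are group means over 5 arrays. The mitosis, fibrillar collagen and contractile lists are higher in every aCF array than in every CF array, the resting fibroblast list is lower, and aCF4 and aCF5 lie below the other aCF arrays for the endothelial and heart muscle lists.

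Genes of mitosis and the spindle had the highest median of the lists. Of 67 measured genes 32 rose, and 55 were higher and 1 lower by the Benjamini-Hochberg rule. The median difference was 1.36. The array means lay between -1.43 and -1.10 in CF and between -0.08 and 0.13 in aCF. When single arrays were left out, 23 to 32 rose, and without aCF4 and aCF5 the count was 16, and 54 were higher by the Benjamini-Hochberg rule. The way these genes vary together was also used to find the row displacement, through 61 of them, so their shared movement is in part what placed the names.

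Among the genes that start mitosis, Plk1, the polo-like kinase, stood at -3.65, -3.86, -3.44, -2.43 and -3.66 in CF and at 0.01, -0.55, 0.00, 0.00 and 0.13 in aCF. It rose by 3.33 ± 0.25 (2.62 after quantile normalization, adjusted p = 0.0857 without aCF4 and aCF5). Fam83d, which helps to align chromosomes on the spindle, stood at -3.93, -3.78, -3.83, -3.67 and -2.61 in CF and between -0.28 and 0.54 in aCF (3.66 ± 0.25, or 2.92 after quantile normalization). Kif23, a motor of the central spindle, stood between -2.96 and -2.20 in CF and between 0.00 and 0.38 in aCF (2.81 ± 0.14, adjusted p = 3.24e-05). Depdc1a rose by 2.77 ± 0.16. Cdc20, an activator of the ubiquitin ligase that ends metaphase, stood at -1.79 in CF4 and between -2.84 and -2.56 in the other CF arrays. In aCF it stood between -0.26 and 0.16 (2.48 ± 0.19). Without aCF4 and aCF5 its difference was 2.47 (adjusted p = 0.0684).

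Mki67, the gene of the proliferation antigen Ki-67, stood at -2.71, -2.58, -2.58, -1.18 and -2.96 in CF and at 0.05, 0.08, 0.00, -0.10 and 0.42 in aCF. The groups did not overlap, and the difference of 2.49 ± 0.29 missed the Bonferroni rule (adjusted p = 0.0928) and passed it without CF4. The condensin subunit Ncaph stood at -1.17 in CF4 and between -2.07 and -1.81 in the other CF arrays (1.71 ± 0.21, adjusted p = 0.134). It passed without CF4 or aCF3. Of the 32 genes that rose, 21 had their highest CF value in CF4.

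**Figure D4:**
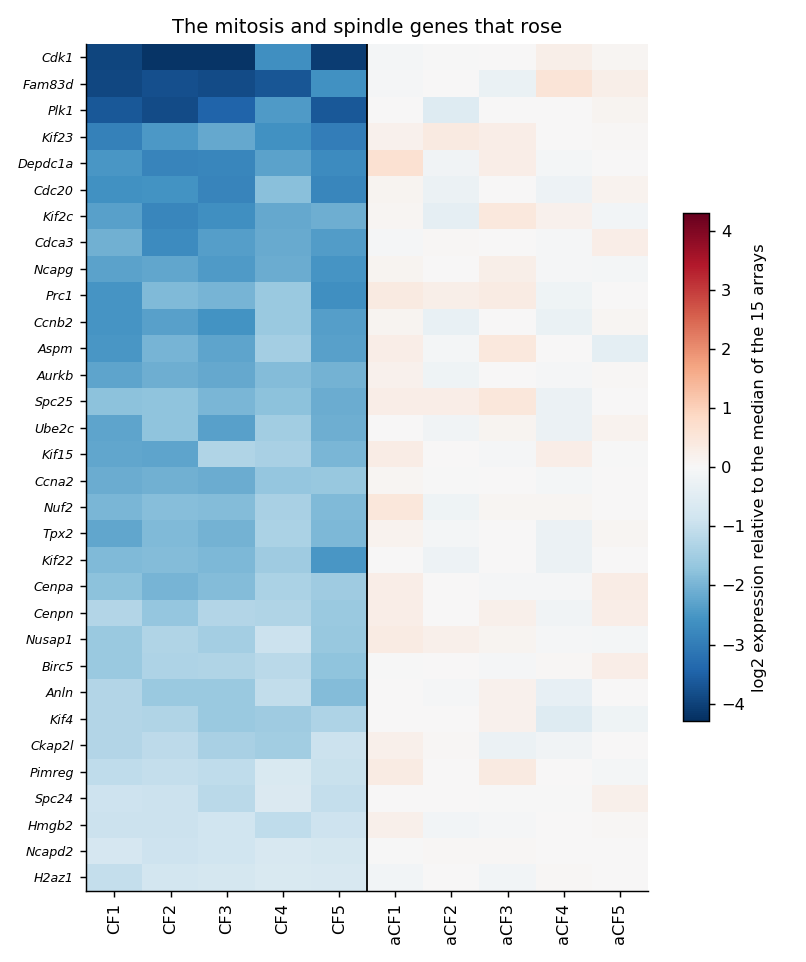
Values of the 32 mitosis and spindle genes that rose, ordered by their difference, in the 5 CF and 5 aCF arrays. Colour is the log2 value, with 0 at the median of all arrays (blue below, red above), and the black line parts the groups. CF4 is the palest CF column for 21 of the 32 genes, and the aCF columns are close to 0.

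Promoters of these genes are shown because many late cell cycle promoters are known to carry a cell cycle homology region (CHR), with the letters TTTGAA, and CCAAT boxes, to which the DREAM and MuvB complexes and the factor NF-Y bind. The RefSeq promoter table (GRCm38.p6, 250 bases before to 50 after the start of a gene) held 27 of the 32 genes that rose. On either strand, TTTGAA was in 23 of these 27 promoters (85.2%) and CCAAT in 21 (77.8%), and both were in 20 (74.1%). Over all 27025 promoters of the table the shares were 18.1%, 37.9% and 7.12%. Of the 33 mitosis promoters of genes that did not pass the Bonferroni rule, 14 (42.4%) held TTTGAA, 21 (63.6%) CCAAT and 12 (36.4%) both. Of 43 DNA replication promoters, 6 (14%) held TTTGAA, 27 (62.8%) CCAAT and 3 (6.98%) both. CCAAT thus differed less between these sets than TTTGAA did. The motifs were counted on the genes with the values known, and a match is a description of letters, not of binding. The 120 bases that end just before the start of 4 of the genes are given 5′ to 3′ on the strand of the gene, with matches to TTTGAA (or TTCAAA) and CCAAT (or ATTGG) in capitals. Cdk1 is on the minus strand at chr10:69352913-69353032, Cdc20 on the minus strand at chr4:118437344-118437463, Fam83d on the plus strand at chr2:158767979-158768098 and Depdc1a on the plus strand at chr3:159495313-159495432.
Cdk1: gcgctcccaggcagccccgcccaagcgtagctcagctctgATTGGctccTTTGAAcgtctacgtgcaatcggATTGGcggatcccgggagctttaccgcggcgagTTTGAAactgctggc
Cdc20: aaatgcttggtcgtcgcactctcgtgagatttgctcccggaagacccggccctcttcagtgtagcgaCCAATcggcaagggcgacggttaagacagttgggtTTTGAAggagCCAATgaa
Fam83d: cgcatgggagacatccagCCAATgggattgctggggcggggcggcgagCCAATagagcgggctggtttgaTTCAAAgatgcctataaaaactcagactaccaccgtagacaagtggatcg
Depdc1a: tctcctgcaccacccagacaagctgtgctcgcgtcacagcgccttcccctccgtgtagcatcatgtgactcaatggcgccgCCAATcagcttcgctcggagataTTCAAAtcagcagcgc
Cdk1 had 2 matches to each motif in this window, Cdc20 and Fam83d had 1 match to TTTGAA and 2 to CCAAT, and Depdc1a had 1 of each. In Plk1 and Kif23 the match to TTTGAA lay after the start, outside such a window.

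Genes of DNA replication had a smaller median. Of 53 measured genes 7 rose and 27 were higher by the Benjamini-Hochberg rule, with a median of 0.37. The count of 7 was 3 without CF2 or aCF4, 4 without CF1, CF3, aCF1, aCF3 or aCF5, and 1 without aCF4 and aCF5. E2f8, a repressor among the E2F factors, stood between -2.80 and -2.15 in CF and between -0.62 and 0.37 in aCF (2.63 ± 0.19, adjusted p = 0.0578 without aCF4 and aCF5). Tyms, the thymidylate synthase, rose by 1.24 ± 0.08 (adjusted p = 0.000345). Gins2, a subunit of the replicative helicase, rose by 1.13 ± 0.09 (adjusted p = 0.133 without aCF4 and aCF5). The helicase subunit Mcm6 was higher by 0.57 ± 0.10, while the sliding clamp gene Pcna differed by 0.17 ± 0.07 (Benjamini-Hochberg adjusted p = 0.106). Of 24 genes that restrain the cycle, 10 were higher and 2 lower. Among them Btg2, an antiproliferative protein, was lower (difference -0.996 ± 0.137), and Cdkn1c differed by -0.16 ± 0.07.

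Most fibrillar collagens, the main collagens of scar, rose. Of 9 fibrillar collagen genes 6 rose and 7 were higher by the Benjamini-Hochberg rule, and the median was 1.18. Col5a3 and Col27a1, named after their values were seen, passed neither rule (differences -0.36 and 0.02). The count of 6 was 5 or 6 when any 1 array was left out. Col1a1, the alpha 1 chain of type I collagen, stood at -0.89, -0.99, -1.09, -0.83 and -1.10 in CF and at 0.22, 0.16, 0.18, 0.25 and 0.20 in aCF. The aCF arrays were closely grouped, and the rise was 1.18 ± 0.06, or 2.27-fold (adjusted p = 5.7e-05). Col1a2, the partner chain, rose by 1.27 ± 0.06, and Col5a2, a chain of the type V collagen that helps to set fibril diameter, by 1.48 ± 0.08. Col3a1, the type III chain, rose by 1.07 ± 0.09. Without aCF4 and aCF5 its difference was 1.06 (adjusted p = 0.303).

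Col11a1, a minor fibrillar chain best known from cartilage, had the largest difference of this list. It stood at -1.05, -1.12, -1.39, -1.32 and -1.19 in CF and at 0.93, 1.48, 0.95, 1.74 and 1.51 in aCF (2.54 ± 0.16, adjusted p = 0.000222). Col24a1 had a difference of 1.29 ± 0.12, and its call was lost without CF1, CF2, CF4, CF5 or aCF1 (adjusted p up to 0.0583), after quantile normalization (0.0751), in the fit of all 15 arrays (0.676) and without aCF4 and aCF5 (0.292). Col5a1 was higher by 0.66 ± 0.09 (Bonferroni-adjusted p = 0.364).

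Other collagens were divided. Of 26 genes 1 rose, and 3 were higher and 5 lower by the Benjamini-Hochberg rule, with a median of -0.03. The 1 that rose was Col16a1 (0.65 ± 0.06, adjusted p = 0.015). Its call held without CF2 or aCF1 and was lost without each other array (up to 0.0939). The fit of all 15 arrays (0.207), the trended, robust prior (0.572) and the omission of aCF4 and aCF5 (0.4) ended it too. Col4a3, a basement membrane chain, stood between 1.34 and 1.83 in CF and at 0.00, 0.19, 0.30, -1.41 and -0.77 in aCF (-1.93 ± 0.30). Col6a6 stood at 0.00, -0.22, 0.21, -1.27 and -1.10 in aCF (-1.87 ± 0.27). In both, aCF4 and aCF5 were the lowest arrays, as they were for the endothelial and heart muscle lists. The same held for Ntrk3, Olfml2a, Prex2, Kcnip1 and Ret, and not for Penk or Icosl. A link to cell types was not tested.

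Enzymes that modify collagen went both ways. Of 22 genes 4 rose and 2 fell, and 13 were higher and 4 lower by the Benjamini-Hochberg rule. The count of 2 was 1 without any single array. Beside P4ha3, those that rose included the cross-linking lysyl oxidase family member Loxl3 (0.88 ± 0.07, adjusted p = 0.0814 without aCF4 and aCF5) and the collagen chaperone Serpinh1 (0.79 ± 0.06, adjusted p = 0.00151). The fourth was the collagen galactosyltransferase Colgalt1 (0.57 ± 0.06, adjusted p = 0.0456), which kept its call without aCF3 and lost it without each of the other 9 arrays (up to 0.276). Its call was also lost after quantile normalization (0.0948), with the least variable 20% of rows left out (0.105), with the trended, robust prior (0.0854) and without aCF4 and aCF5 (0.884). Beside Colgalt2, the other that fell was Pcolce2, a procollagen proteinase enhancer (-0.53 ± 0.06, adjusted p = 0.0397). It lost its call without each of the 10 arrays in turn (up to 0.249), after quantile normalization (0.48), in the fit of all 15 arrays (1), with the least variable rows left out (0.125), with that prior (1) and without aCF4 and aCF5 (1). Serpinh1 stood between -0.86 and -0.65 in CF and between 0.00 and 0.18 in aCF. Plod2, a lysyl hydroxylase, was higher by 0.98 ± 0.11 (Bonferroni-adjusted p = 0.067). Genes of the secretory pathway were shifted by less, with 24 of 52 higher, 4 lower (2 without CF3) and a median of 0.16. Ckap4, a membrane protein of the endoplasmic reticulum, rose by 1.00 ± 0.08 (adjusted p = 0.0602 without aCF4 and aCF5), while the stress chaperone Hspa5 differed by -0.15 ± 0.07.

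Of 25 matricellular and adhesive matrix genes 10 rose and 1 fell, and 15 were higher and 3 lower by the Benjamini-Hochberg rule. The count of 1 was 0 without any of CF1 to CF5, aCF1, aCF2 or aCF5. The count of 10 was 5 or 6 without CF2, CF3, CF4, CF5, aCF2, aCF3, aCF4 or aCF5, and 4 without aCF4 and aCF5 together. The list median was 0.43. Fn1, the gene of fibronectin, stood at -0.97, -1.15, -1.12, -1.09 and -0.95 in CF and at 0.24, 0.23, 0.17, 0.28 and 0.26 in aCF. The rise of 1.29 ± 0.06 (adjusted p = 6.97e-06) was far larger than the spread of either group. Cilp, a matrix protein first known from cartilage, stood between -0.14 and 0.35 in CF, between 1.35 and 1.49 in aCF, and at -1.22 ± 0.71 (SD, n = 5) in EpiSC. Its rise of 1.35 ± 0.09 had an adjusted p of 0.000381, and the call was lost in the fit of all 15 arrays (adjusted p = 1) and with the trended, robust prior (0.185).

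Comp and Ccn2 were called on thinner evidence. Comp, a pentameric matrix protein of cartilage and tendon, stood between -0.59 and 0.29 in CF and between 1.09 and 1.57 in aCF (1.64 ± 0.16, adjusted p = 0.0244). The call held without CF1 or aCF5 and was lost without each of the other 8 arrays (adjusted p up to 0.148). It was also lost in the fit of all 15 arrays (0.272), with the trended, robust prior (0.167) and without aCF4 and aCF5 (0.191). Ccn2, a connective tissue growth factor, stood between -0.25 and 0.01 in CF and between 0.62 and 1.32 in aCF (1.14 ± 0.12, adjusted p = 0.0484). Of the 10 omissions, that of aCF1 kept the call (adjusted p up to 0.273 without each of the others, 0.191 after quantile normalization, 0.717 with that prior, and 1 without aCF4 and aCF5). Elastin, Eln, was higher by 0.91 ± 0.14 and the latent TGF-beta binding protein Ltbp4 was lower (difference -0.53 ± 0.07.)

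Among 25 proteoglycan and hyaluronan genes 4 rose, and 10 were higher and 2 lower by the Benjamini-Hochberg rule. Leaving out any 1 array left 4. Beside Cemip, the largest was Fmod, a collagen-binding proteoglycan of tendon. It stood at 0.47, -0.38, -0.46, -0.58 and 0.00 in CF and at 3.04, 2.72, 3.08, 2.56 and 2.58 in aCF. The groups were widely apart, and the difference was 2.99 ± 0.20 (7.92-fold, adjusted p = 0.000424). Acan, the large proteoglycan of cartilage, stood between -0.03 and 0.02 in CF and between 1.18 and 2.14 in aCF (1.64 ± 0.14, adjusted p = 0.00581, and 0.153 with the trended, robust prior). Hmmr, a hyaluronan-binding protein of the spindle, rose by 1.80 ± 0.16 (adjusted p = 0.164 without aCF4 and aCF5). The hyaluronan receptor gene Cd44 was higher by 0.91 ± 0.15 and biglycan, Bgn, by 0.30 ± 0.07.

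Several of these genes also stood on a list of bone and cartilage genes, of which 8 of 28 rose, and 10 were higher and 3 lower by the Benjamini-Hochberg rule, with a median of 0.08. The count of 8 was 5 without CF2, CF3, CF4, CF5, aCF2 or aCF3. Of these, Fmod, Acan, Col11a1, Cilp, Comp and Ecrg4 have been described. Alpl, the alkaline phosphatase of mineralizing cells, was lower (difference -0.59 ± 0.10) and Col10a1, the collagen of hypertrophic cartilage, also was (difference -0.83 ± 0.21). The tendon protein Tnmd was higher by 1.07 ± 0.15.

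Of 37 matrix proteases and inhibitors 4 rose and 1 fell, and 11 were higher and 6 lower by the Benjamini-Hochberg rule. The 1 that fell was Htra3 (difference -0.75, adjusted p = 0.0229). Its call held without aCF1 or aCF3 and was lost without each other array (up to 0.142). It was also lost after quantile normalization (0.212) and in the fit of all 15 arrays (0.0653). The trended, robust prior (0.897) and the omission of aCF4 and aCF5 (0.158) ended it too. The count of 4 was 2 without any of CF1 to CF5, aCF1, aCF2, aCF3 or aCF5, and the count of 6 was 2 or 3 without CF2, CF3, CF4, CF5, aCF2, aCF4 or aCF5. Adam12, a membrane metalloprotease, stood at -3.10, -3.00, -3.45, -2.70 and -2.92 in CF and at -0.27, 0.00, -0.37, 0.35 and 0.47 in aCF (3.07 ± 0.18, adjusted p = 0.000161). Timp1, an inhibitor of matrix metalloproteases, stood between -2.50 and -1.80 in CF and between -0.25 and 0.07 in aCF (1.99 ± 0.12, adjusted p = 0.000238). Both kept their calls in all 10 omissions of 1 array. The gelatinase Mmp2 was lower (difference -0.15 ± 0.04) and so was the stromelysin Mmp3 (difference -1.08 ± 0.26).

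Contractile and cytoskeletal genes had more members higher than lower. Of 40 genes 9 rose, and 22 were higher and 3 lower by the Benjamini-Hochberg rule, with a median of 0.31. The count of 9 was 4 or 5 without CF2, CF3, CF4, CF5, aCF2, aCF3 or aCF5. The list mean was highest in aCF4 (0.33) and aCF5 (0.31), against 0.05 to 0.14 in aCF1 to aCF3 and -0.55 to -0.46 in CF. Tagln, the actin-binding protein SM22 of smooth muscle and of myofibroblasts, stood at -1.50, -1.60, -1.78, -1.33 and -2.01 in CF and at 0.48, 0.81, 0.51, 0.94 and 0.84 in aCF (2.36 ± 0.14, adjusted p = 0.000111).

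A pair of smooth muscle genes varied strongly within aCF. Cnn1, the actin-binding calponin 1, stood at -0.43, 0.23, -0.09, 1.43 and 1.12 in aCF and between -2.62 and -2.34 in CF (2.98 ± 0.32, adjusted p = 0.0427). It kept its call without aCF1 or aCF4 and lost it without each of the other 8 arrays (adjusted p up to 0.245) and after quantile normalization (0.435). Actg2, the gamma actin of visceral smooth muscle, was likewise highest in aCF4 and aCF5, at -0.70, 0.26, -0.79, 1.24 and 1.00 in aCF and between -3.35 and -2.88 in CF. Its difference of 3.32 ± 0.38 missed the Bonferroni rule (adjusted p = 0.084). Myl9, a myosin light chain, was higher by 1.12 ± 0.15. The mural cell list, which shares Cnn1, was higher in every aCF array as given above. Of 17 integrins 1 was higher and 1 lower by the Benjamini-Hochberg rule (8.74% and 9.38% over all probe sets). These were Itgb1 (0.28 ± 0.05) and Itga8 (-1.32 ± 0.24), and the first count was 2 without CF1 or aCF3 and the second 2 without CF5.

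Genes that mark resting fibroblasts were lower in most cases. Of 35 measured genes 15 fell and 30 were lower by the Benjamini-Hochberg rule, with a median of -0.75. The count of 15 was 7 or 8 without CF1, CF2, CF3, CF4, CF5, aCF2, aCF4 or aCF5, and 6 without aCF4 and aCF5 together, while the count of 30 stayed between 27 and 29 in the omissions of 1 array. The list mean lay between 0.51 and 0.70 in CF and between -0.34 and -0.12 in aCF. Beside Ces1d and Penk, Igfbp3, a carrier of insulin-like growth factors, stood at 0.58, 0.73, 0.79, 0.36 and 0.67 in CF and at -0.63, -0.80, -1.06, -0.98 and -0.81 in aCF (-1.48 ± 0.10, adjusted p = 0.00061). Ackr3, a scavenging chemokine receptor, stood between 0.77 and 1.01 in CF and between -0.69 and -0.22 in aCF (-1.44 ± 0.10).

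Efemp1, a fibulin of elastic matrix, stood between 0.09 and 0.46 in CF and between -1.49 and -0.94 in aCF, below the EpiSC mean of -0.07 ± 0.15 (SD, n = 5). It fell by 1.54 ± 0.13 (adjusted p = 0.17 without aCF4 and aCF5). Gsn, the actin-severing protein gelsolin, stood at 1.11, 1.06, 1.02, 1.06 and 1.09 in CF and at 0.00, -0.10, 0.18, -0.21 and -0.17 in aCF. It fell by 1.13 ± 0.08 (adjusted p = 0.00045), a call lost in the fit of all 15 arrays (adjusted p = 1) and with the trended, robust prior (0.197). Inmt, a methyltransferase of indole amines, was lower (difference -2.17 ± 0.28) and missed the Bonferroni rule (adjusted p = 0.246). Tcf21, a transcription factor of the fibroblast lineage, was lower (difference -0.38 ± 0.09.)

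The list of lipid, retinoid and xenobiotic metabolism overlaps the resting list and moved the same way. Of 71 genes 3 rose and 12 fell, and 9 were higher and 32 lower by the Benjamini-Hochberg rule, with a median of -0.33. The count of 12 was 5 without CF3, 6 without CF2 or CF5, and 7 without CF4, aCF4 or aCF5. Ces1d, Slco2b1, Aox1 and Gsta3 were the largest of these decreases. Adh1, an alcohol dehydrogenase that oxidizes retinol, stood between 0.00 and 1.21 in CF and between -1.73 and -0.63 in aCF (-1.52 ± 0.27, Benjamini-Hochberg adjusted p = 0.00348). Maob, a monoamine oxidase, was lower (difference -1.49 ± 0.17.) Ddah1 rose against this direction, and so did Crabp2, a carrier of retinoic acid, at -2.01 ± 0.17 (SD, n = 5) in CF, 0.07 ± 0.50 in aCF and 2.49 ± 0.38 in EpiSC. The rise of Crabp2 (2.08 ± 0.21, adjusted p = 0.0289) held without aCF1, aCF2 or aCF3 and was lost without each of the other 7 arrays (up to 0.175), after quantile normalization (0.219) and without aCF4 and aCF5 (0.557). Pparg, the fat cell regulator, differed by 0.13 ± 0.14.

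Secreted growth factors are among the signals that fibroblasts send. Of 40 growth factors and receptors 8 rose and 2 fell, and 18 were higher and 5 lower by the Benjamini-Hochberg rule. The count of 2 was 1 without CF2, CF3, CF4, CF5, aCF2 or aCF4. Nrg1, neuregulin 1, stood at -1.23, -1.25, -1.37, -1.16 and -1.54 in CF and at 0.84, 1.03, 0.69, 1.47 and 1.83 in aCF (2.48 ± 0.20, adjusted p = 0.00258). Bdnf, a neurotrophin, stood between -0.55 and 0.00 in CF and between 1.68 and 2.86 in aCF (2.47 ± 0.22, adjusted p = 0.00661). Pdgfc, a ligand of platelet-derived growth factor receptors, rose by 2.42 ± 0.19 and was higher still in EpiSC, at 1.39 ± 0.17 (SD, n = 5) against 0.00 ± 0.37 in aCF. Ptn, the heparin-binding factor pleiotrophin, stood at 0.00 in CF1 and between -0.92 and -0.81 in the other CF arrays. In aCF it stood between 1.23 and 1.48 (2.05 ± 0.16). Without aCF4 and aCF5 its difference was 2.07 (adjusted p = 0.0843). Igf1 and Igf2 were higher by 0.25 ± 0.07 and 0.66 ± 0.11.

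The TGF-beta and BMP list was divided, with 11 of 40 higher, 8 lower and a median of 0.01. Its 1 call was Gdf6, a BMP family ligand, which stood at -1.72, -1.77, -1.63, -1.41 and -1.46 in CF and at 0.71, 0.97, 0.55, 0.81 and 0.95 in aCF (2.40 ± 0.10, adjusted p = 4.24e-06). The ligand Tgfb1 was higher by 0.39 ± 0.09, the target gene Id3 was higher by 0.83 ± 0.12, and the co-receptor Tgfbr3 was lower (difference -0.92 ± 0.10.) In the Wnt list 3 of 43 rose. By the Benjamini-Hochberg rule 11 were higher and 4 lower (8.74% and 9.38% over all probe sets). The count of 4 was 2 without CF2 or CF3. Those that rose were secreted Wnt antagonists.

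Sfrp2 stood at -1.30, -1.30, -1.35, -1.38 and -0.99 in CF and at 1.26, 1.05, 1.13, 1.23 and 1.23 in aCF (2.44 ± 0.08, adjusted p = 3.86e-07). Sfrp1 stood between -0.25 and 0.05 in CF and between 0.92 and 1.43 in aCF. It rose by 1.30 ± 0.10 (adjusted p = 0.00206), a call lost in the fit of all 15 arrays (0.102), with the trended, robust prior (0.194) and without aCF4 and aCF5 (0.0768). The third was Frzb, with 0.69 ± 0.07 (adjusted p = 0.0249), which lost its call without each of the 10 arrays in turn. It also lost it in the fit of all 15 arrays (1), with that prior (1) and without aCF4 and aCF5 (0.401). Kremen1, a receptor of Wnt antagonists, was lower (difference -0.76 ± 0.13.)

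Of 60 cytokine and chemokine genes 2 rose and 2 fell, and 10 were higher and 8 lower by the Benjamini-Hochberg rule, with a median of -0.05. Il6, the cytokine interleukin 6, stood at -2.80, -2.54, -3.03, -2.63 and -2.23 in CF and at 0.05, 0.63, 0.23, 0.42 and 0.00 in aCF. It rose by 2.91 ± 0.16, or 7.53-fold (adjusted p = 6.61e-05), while its receptor chain Il6ra fell, as given above. Il13ra1, a receptor chain of interleukin 13, rose by 1.07 ± 0.08 (adjusted p = 0.00168). The eosinophil attractant Ccl11 was lower (difference -0.90 ± 0.18), and the monocyte attractant Ccl2 differed by -0.25 ± 0.11 (Benjamini-Hochberg adjusted p = 0.132). Of 32 interferon-stimulated genes 2 rose. By the Benjamini-Hochberg rule 10 were higher and 3 lower (8.74% and 9.38% over all probe sets). Isg15, a ubiquitin-like modifier, stood between -1.22 and -0.98 in CF and between -0.13 and 0.07 in aCF (1.07 ± 0.07, adjusted p = 0.000251). Irf7, a transcription factor of the interferon response, rose by 1.22 ± 0.11 (adjusted p = 0.284 without aCF4 and aCF5). Complement genes were split, 5 of 27 higher and 6 lower.

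Immediate early and stress genes, which respond quickly to many stimuli, had more members lower than higher. Of 26 genes 2 fell, and 12 were lower and 3 higher by the Benjamini-Hochberg rule, with a median of -0.35. The count of 2 was 1 without CF2, CF3, CF5, aCF1, aCF2, aCF4 or aCF5. Ppp1r15a, a phosphatase subunit induced by stress, stood between 0.54 and 0.76 in CF and between -0.40 and -0.13 in aCF. It fell by 0.89 ± 0.07 (adjusted p = 0.00326), a call lost in the fit of all 15 arrays (0.397), with the trended, robust prior (0.0792) and without aCF4 and aCF5 (0.0874). Ier2 and Fosb were lower (differences -1.29 ± 0.18 and -1.03 ± 0.13), and so was Atf3 (difference -0.88 ± 0.10).

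Of 55 transcription factor genes of fibroblasts 1 rose and 1 fell, and 10 were higher and 12 lower by the Benjamini-Hochberg rule. Prrx2 rose (difference 1.06, adjusted p = 0.0283), a call kept without CF4 or aCF3 and lost without each other array (up to 0.155). Klf4 fell (difference -1.08, adjusted p = 0.0225), a call kept without CF1 or aCF3 and lost without each other array (up to 0.142). Both lost their calls without aCF4 and aCF5 (0.463 and 0.625). Sox12 was higher by 1.33 ± 0.18, the mineralocorticoid receptor gene Nr3c2 was lower (difference -1.45 ± 0.23), and the heart development factor Tbx20 differed by -0.03 ± 0.08. In the metabolic lists limma called 0 genes by the Bonferroni rule. At an unadjusted p under 0.05 there were 17 of 29 for glycolysis and hypoxia, 18 of 46 for the respiratory chain and 8 of 15 for cholesterol synthesis. Over all probe sets 6917 of 22206 lay under that threshold. By the Benjamini-Hochberg rule, which called 8.74% of all probe sets higher, 9 of 29 glycolysis and hypoxia genes were higher and 2 lower, and the lower count was 1 without CF1, CF2, CF3, aCF2, aCF4 or aCF5. Ldha, a lactate dehydrogenase, was higher by 0.50 ± 0.09. Of 46 respiratory chain genes 7 were higher and 1 lower (0 of them lower in limma without CF1, CF3, CF5, aCF4 or aCF5, against 1 at an unadjusted p under 0.05 with all arrays), with a median of 0.09. Of 15 cholesterol synthesis genes 5 were higher and 2 lower. The first count was 2 or 3 without CF1, CF2, CF3, CF5, aCF1, aCF4 or aCF5.

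Values of EpiSC, from the surface of infarcted hearts, are set beside those of aCF for the leading genes, with no test. Cemip stood at 2.21 ± 0.30 in aCF and 0.38 ± 0.83 in EpiSC (SD, n = 5), and Fmod at 2.80 ± 0.25 and -0.35 ± 0.48. Cdk1 stood at 0.05 ± 0.13 in aCF and 0.71 ± 0.22 in EpiSC, and Timp1 at -0.05 ± 0.13 and 0.52 ± 0.14. The aCF mean was thus the higher for Cemip and Fmod and the lower for Cdk1 and Timp1. Fmod in EpiSC lay near its CF mean of -0.19, while the EpiSC means of Cemip, Cdk1 and Timp1 lay above those of CF. For Tnc, Fn1 and Postn the means were 0.26, 0.24 and 0.40 in aCF and 0.01, 0.00 and -0.02 in EpiSC.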

How the data were processed

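Total RNA (1 ng per sample) of 5 CF, 5 aCF and 5 EpiSC samples was amplified, labelled with biotin and hybridised to Affymetrix arrays. The log2 values were deposited by the authors after quantile normalization of probe signals, ExonRMA16 summarization in GeneSpring GX 12.5 and centring on the median of all samples, per the labels' design text. The authors' filter on dim probe sets was not repeated, since centred values carry no signal level. Genome build and scan batches are not given in the sources used here.

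Identifiers and values were paired by a displacement of 6900 rows, which gave the highest mean correlation (0.190) among 61 mitosis genes over 9820 displacements, against 0.0576 for the next best and 0.0109 as deposited. With each chromosome cut in the middle, in all 24 pieces the same displacement, or that of 6903 rows for chromosomes 10 and 11, was the best of 41 shifts. The check by pieces used several lists, among them the mitosis genes, so it was not independent of the first search. A piece held 5 to 28 list genes. In the X chromosome pieces the mean correlation was 0.344 and 0.404, against 0.306 and 0.332 at the next best shift. Gene symbols came from the platform annotation, in which 19572 probe sets had 1 symbol, 0 had several and 2634 had none. All 19572 matched RefSeq (GRCm38.p6). Where 25 genes had several probe sets the first was used.

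Groups were compared with limma 3.58.1 in R 4.3.3 (lmFit, eBayes) on 10 arrays, with Bonferroni and Benjamini-Hochberg adjustment over 22206 probe sets. Each p sets the difference between the groups against the spread among the 5 samples within each, which the titles call biological replicates. That spread is pooled over both groups and moderated over all probe sets. It is taken as equal in both groups, which did not hold for every gene (Colgalt2 had an SD of 0.04 in CF and 0.40 in aCF). No 2 arrays shared over 2.45% of their values. Shared replicate numbers did not pair the samples, since deviations of same-numbered arrays correlated between -0.0333 and 0.0665. On simulated data of the same size, limma's Bonferroni rule recovered 4 of 50 genes changed by 0.5 on the log2 scale, 32 by 1, 45 by 2 and 50 by 3, with 0 false calls. The simulated noise was normal and independent between genes and arrays, and most genes were left unchanged. On the real arrays genes varied together, so these rates need not hold for them.

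Named genes were the 15 largest increases and decreases among named, non-overlapping calls, without predicted genes and olfactory receptors, 5 markers of the comparison, and, in each list, up to 6 Bonferroni calls and 3 further Benjamini-Hochberg calls by size with preset reference genes. Some genes chosen by that rule are not printed. The lists and members were chosen with earlier results of these data known. Alternatives were another normalization (quantile, on the centred values), prior, filter, set of rows or set of arrays. The number of arrays limits the precision, and signal over background was not known.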

Additional observations from a re-analysis of the deposited data

Results flagged for a closer look

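An array stood apart from the other 4 of its group in 29 of 498 groups of 5 checked over named genes and list means, where chance gives about 1 in 20. Among CF arrays, CF4 was the highest in the mitosis list mean (-1.10, others -1.43 to -1.36) and in Cdk1 (-2.65), Cdc20 (-1.79), Mki67 (-1.18) and Ncaph (-1.17). CF5 was apart in Fam83d (-2.61), P4ha3 (-2.54) and Sfrp2 (-0.99). CF1 was apart in Ntrk3 (1.41), Itga8 (1.99), Sfrp1 (-0.25), Ptn (0.00), the smooth and striated muscle filament gene Des (-1.27), and the chemokine and cytokine list mean (-0.11). CF2 was apart in the neutrophil protein gene Lcn2 (-2.09, others -1.50 to -1.29), and CF3 in Cemip (-3.47).

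Among aCF arrays, aCF1 was apart in the complement list mean (0.14) and in the respiratory chain gene Sdhd (0.24). aCF2 was apart in Plk1 (-0.55) and in the replication helicase gene Mcm5 (-0.39, others 0.00 to 0.07). aCF3 was apart in Ddah1 (1.52), Pparg (-0.02) and the transcription factor gene Klf15 (0.76, others -0.22 to -0.06). aCF4 was apart in the protease genes Ctsk (1.04) and Mmp23 (0.43) and the respiratory chain gene Atp5e (0.32). aCF5 was apart in Comp (1.09), Igf1 (0.25) and the mural list mean (0.54, others 0.32 to 0.38).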

How the results depend on the processing

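No named gene that passed the Bonferroni rule, with all arrays or under an alternative, changed sign between them. The 340 Bonferroni calls became 212 with a trended, robust prior, 144 without aCF4 and aCF5, 4023 with the Benjamini-Hochberg rule, and 197 to 272 when 1 array was left out. The 269 increases became 112 without aCF4 and aCF5, 1940 with the Benjamini-Hochberg rule, and 165 to 198 when 1 array was left out. The 71 decreases became 120 over paired rows alone, where fewer tests enter the adjustment, 42 after quantile normalization, 16 with the trended, robust prior, 32 without aCF4 and aCF5, 2083 with the Benjamini-Hochberg rule, and 32 to 74 when 1 array was left out. The 4023 Benjamini-Hochberg calls became 2535 without aCF4 and aCF5 and 3157 to 4224 when 1 array was left out. Of the listed genes 134 were called, against 10 with the rows read as deposited, 87 with the trended, robust prior, 66 without aCF4 and aCF5, and 87 to 108 when 1 array was left out. The replicate block, with the replicate number as a block although the numbers did not pair the samples (1 of 5 aCF arrays correlated best with the CF array of its number), gave 94 calls, 79 increases, 15 decreases and 46 listed genes. Of 97 named genes that were called, 18 lost the call in the fit of all 15 arrays, 16 after quantile normalization, 30 with the trended, robust prior, 4 with the least variable 20% of rows left out, 42 without aCF4 and aCF5, and 18 to 28 when 1 array was left out. With the replicate block 56 of the 97 lost it, among them Ces1d, Penk, Nrg1, Bdnf, Pdgfc, Igfbp3 and Ackr3. The cause was not tested, beyond the smaller number of arrays or tests, or the added spread of EpiSC, that an alternative itself brings. Signal over background is not known here, so its limits could not be given.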
